A study of Homo sapiens with 4 samples.

Results

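Cassette exons were described in 7 human genes that encode tissue splicing regulators: MBNL1, MBNL2, CELF1, PTBP1, PTBP2, PTBP3 and QKI. Every event listed under those gene symbols was taken, which gave 32 of the 31408 cassette exon events in the authors' deposited table and 30 of its 27483 unique exons. Such an event compares RNA that keeps an exon with RNA in which its neighbours are spliced directly together, and an exon with several possible neighbours has several events. The study sequenced ribosome-depleted, strand-specific total RNA from HEK293T, a human embryonic kidney cell line. There were 4 libraries, 2 from clones labelled wild type and 2 from clones labelled knockout for RBFOX2 (named RBM9 in the titles), a splicing factor that binds GCATG. Each clone was grown from a single sorted cell after transfection with PX459, a plasmid that carries Cas9, and pgRGFP, a plasmid for guide RNAs on both sides of RBFOX2. Genotypes were determined by PCR. RBFOX2 itself was not analysed here, so the knockout was not checked in these data. The table holds no expression levels, so the cell line was not checked by marker genes.

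The authors' deposited table compares a first set of libraries with a second, and lists for every event how far the inclusion level differed, with a p-value and an FDR (false discovery rate). Inclusion is measured from reads across splice junctions, as the share that keeps the exon after correction for length, and runs from 0 to 1. A negative difference means a lower level in the first set. Neither the header nor the labels say which set is wild type, so no value here is a gain or loss on knockout. The columns for single libraries match no labelled clone and were not used, so levels, junction counts and the spread between libraries are not given here, and each difference rests on the authors' own test. Passing events are those with an FDR under 0.05 whose absolute difference was 0.1 or more.

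These proteins set exon choice in many tissues and also act on their own transcripts. PTBP1, the polypyrimidine tract-binding protein, mostly represses exons, and its paralogs PTBP2 and PTBP3 are best known in neurons and in blood cells. In PTBP1 and PTBP2, skipping of a 34-nt exon shifts the reading frame and exposes the transcript to nonsense-mediated decay, and PTBP1 promotes skipping of that exon in its own transcript and in that of PTBP2. MBNL proteins, sequestered by repeat RNA in myotonic dystrophy, and CELF1 act in opposite ways on many muscle exons. MBNL proteins repress inclusion of a 54-nt exon of their own genes that directs the protein to the nucleus. QKI controls splicing and RNA stability in glia and smooth muscle.

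The 34-nt exons of PTBP2 and PTBP1 are shown first because the largest difference among the 7 genes was in the PTBP2 exon and none was called in its PTBP1 counterpart. Sequences are from GENCODE 29 transcripts on GRCh38 and are written 5′ to 3′ in transcript sense, and capitals mark the bases that differ between the paralogs. The PTBP2 exon is at chr1:96806419-96806452 and the PTBP1 exon at chr19:807869-807902, both on the plus strand.
PTBP2 34-nt exon: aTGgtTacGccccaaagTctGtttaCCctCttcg
PTBP1 34-nt exon: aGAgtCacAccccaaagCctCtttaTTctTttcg
They share 25 of 34 bases (73.5%). The next pair shows what the reading frame meets when the exon is left out: 20 bases before the new junction, then the sequence up to the first stop codon, which is in capitals.
PTBP2 without the 34-nt exon: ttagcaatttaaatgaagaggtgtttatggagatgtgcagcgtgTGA
PTBP1 without the 34-nt exon: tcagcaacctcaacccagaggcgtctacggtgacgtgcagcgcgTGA
In both, a TGA stop begins 24 nt after the junction and lies 361 nt before the last exon junction. Skipping shortens the open reading frame from 1614 to 1086 nt in PTBP2 and from 1596 to 1068 nt in PTBP1.

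Of the 32 events, 5 passed, in 5 exons of 4 genes, as counted from the authors' deposited table. That is 15.6% of the members' events, where 5.15% of all events in the table passed. By exon, 5 of 30 passed, against 5.73% of all exons, and by gene, 4 of 7, against 13.7% of all genes. A gene with more events can pass more easily, and the 7 genes had 32 events where all 9172 genes had 31408. The members were chosen with earlier results of these data known, and the shares were not tested against each other. Inclusion was higher in the second set for 4 of the passing events (2.38% of the table) and in the first set for 1 (2.77% of the table). The 4 were the 34-nt exon of PTBP2, the 78-nt exon of PTBP1 and the 40- and 72-nt exons of CELF1, and the 1 was the 170-nt exon of PTBP3. MBNL1, MBNL2 and QKI had 0 passing events among 12 by the rMATS test, and 1 of the 12, in MBNL2, had an unadjusted p under 0.05. An unadjusted p under 0.05 was listed for 9 of the 32 events and for 12% of the table. Among the events that passed or had such a p, 3 genes of the PTBP family supplied 5 of 9, CELF1 3 and MBNL2 1. Of all 32 events, the PTBP genes held 14, CELF1 6 and MBNL2 3. Some of the 9 events, in PTBP1 and in CELF1, share junctions as described below and are not independent.

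Most of the differences were small. Over the 32 events the authors' deposited table gives differences from −0.357 to 0.208, with a median absolute difference of 0.0375 against 0.048 over the whole table. An absolute difference of at least 0.1 was listed for 7 events (21.9%, against 31.5% of the table), and 19 were under 0.05. The first set was higher in 15 events, the second in 16, and 1 difference was 0. A p-value of 1 was listed for 9 events (28.1%), against 51.4% of the table. The exons were 31 to 963 nt long with a median of 79 nt (117 nt over all exons of the table), and 17 of 30 were a multiple of 3 (56.7%, against 40.7%).

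**Figure D1:**
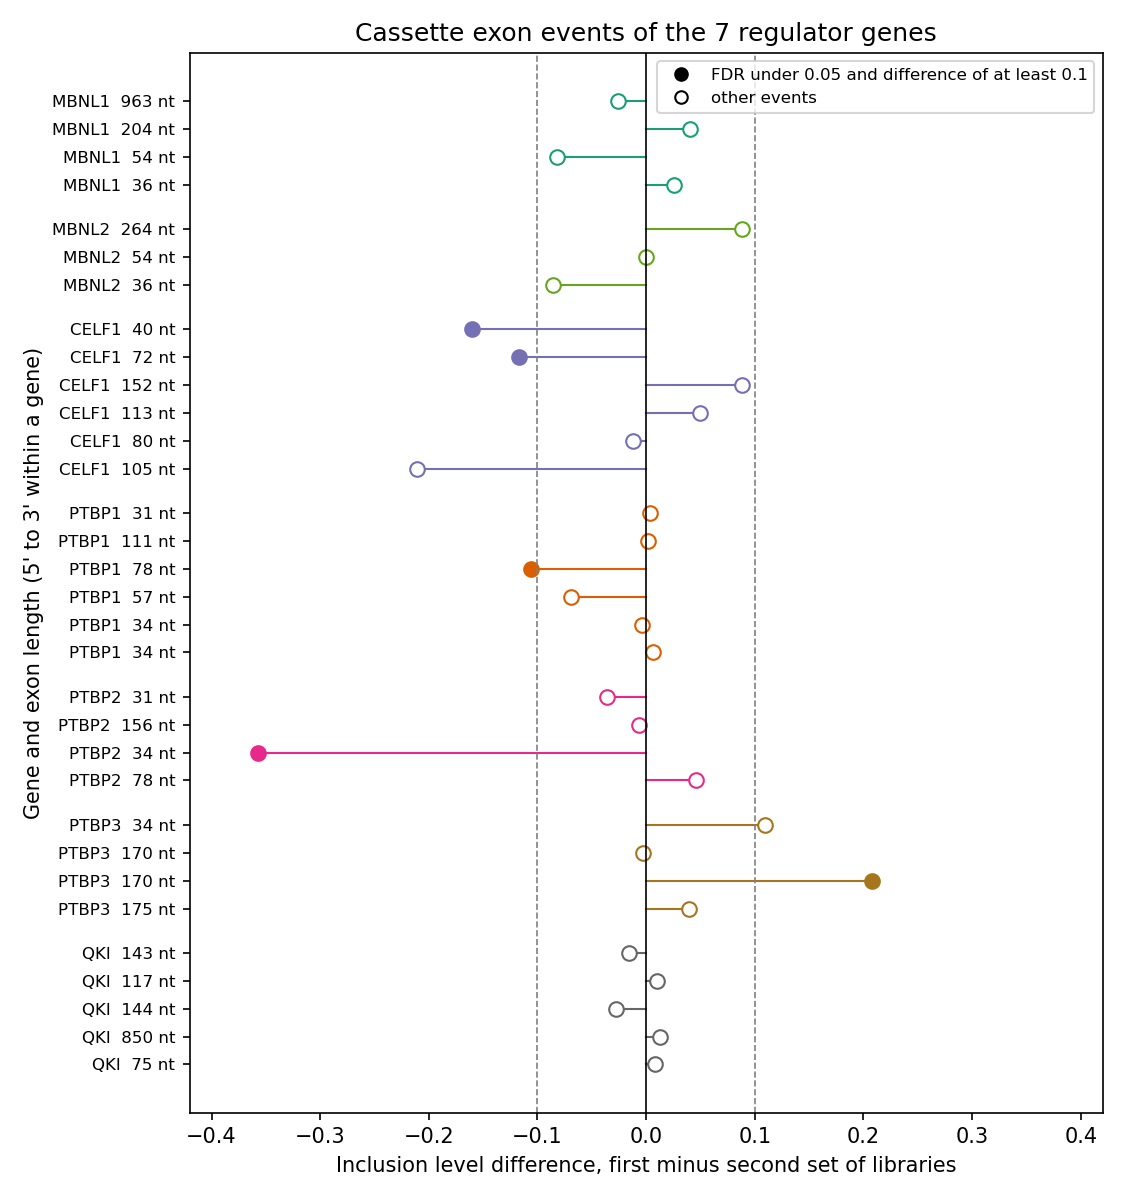
Inclusion level difference (horizontal axis, first minus second set of libraries) for each of the 32 cassette exon events, grouped by gene and labelled by exon length, from the authors' deposited table. Filled points passed (FDR under 0.05 and an absolute difference of at least 0.1, dashed lines). The 34-nt exon of PTBP2 is farthest left at −0.357, the 170-nt exon of PTBP3 farthest right at 0.208, and all QKI events lie between −0.028 and 0.013.

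PTBP2 encodes the paralog that replaces PTBP1 as neurons develop. Its 34-nt exon (gene ENSG00000117569, chromosome 1 at 97271975 to 97272008 in the table, plus strand, exon 10 of 14 and fully coding) differed by −0.357, and the authors' deposited table lists both its p and its FDR as 0. The exon was thus included less often in the first set and more often in the second. A p of 0 is a value below the program's precision, and 38 events of the table carry it. Of the 1619 passing events, 555 had a difference at least as large. The exon is flanked by introns of 1479 and 413 nt. In a bulk library, partial skipping in every cell and full skipping in some cells cannot be told apart. The level is also that of RNA present at collection, so a form that is degraded is counted less than it is made. Some reads may fit both paralogs, and how they were assigned is not given in the sources used here.

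The other 3 exons of PTBP2 did not pass. Its 31-nt exon, the second of the transcript, had a difference of −0.036 (p = 0.326 in the authors' deposited table). The 156-nt and 78-nt exons had differences of −0.007 and 0.046, each with a deposited p of 1. The 156-nt exon matched no exon of GENCODE 29, and the 78-nt exon is the next to last of the transcript and in frame.

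The 34-nt exon of PTBP1 was not called. It (gene ENSG00000011304, chromosome 19 at 807869 to 807902, plus strand) is listed in 2 events in the authors' deposited table, with differences of −0.004 (p = 0.77) and 0.006 (p = 1). The events differ in the preceding exon, which is 1312 nt away in the first and 8425 nt away in the second. Whether the 2 paralogs' differences themselves differ was not tested. The exon that passed in PTBP1 was a 78-nt exon that lengthens the linker between RNA recognition motifs of the protein and is in frame. It lies at 805492 to 805569, between introns of 304 and 838 nt, and the authors' deposited table gives −0.106 for its difference (p = 0.000132, FDR 0.004). A shorter, 57-nt form of the same exon, which starts 21 nt further on, had −0.069 in the authors' deposited table (p = 0.0317, FDR 0.295) and did not pass. The sequence is shown to mark the 21 bases, in capitals, by which the forms differ (GRCh38, chr19:805492-805569, plus strand).
PTBP1 78-nt exon: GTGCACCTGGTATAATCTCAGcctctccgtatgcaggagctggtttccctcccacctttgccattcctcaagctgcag
The difference was negative for both forms, and since they share the skipping junction and the junction to the next exon their values are not independent. The remaining exons of PTBP1, of 31 and 111 nt, had differences of 0.004 (p = 0.58) and 0.002 (p = 1) in the authors' deposited table.

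PTBP3, also known as ROD1, was first described as a regulator of differentiation in blood cells, and exon choice near its start sets the N terminus of the protein. Its 170-nt exon (gene ENSG00000119314, chromosome 9 at 115038124 to 115038293, minus strand) is listed in 2 events that share the following exon. The event with the shorter preceding exon passed: the authors' deposited table gives it 0.208 (p = 0.000219, FDR 0.00607). With the preceding exon 9 nt longer, the same exon had −0.003 (p = 0.648, FDR 1) in the authors' deposited table. These 9 bases at the end of the preceding exon are all that separates the events. Without the exon, a TGA stop begins 20 nt after the junction and lies 1215 nt before the last junction, and the open reading frame falls from 1659 to 141 nt. The difference between the events was not tested.

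Exon 2 of PTBP3, a 34-nt exon directly after the exon with the start codon, did not pass: the authors' deposited table gives it 0.109 (p = 0.0372, FDR 0.331). Skipping it leads to a TGA stop 52 nt after the junction. The second exons of PTBP1 and PTBP2, each 31 nt, stand at the same place in their transcripts and lead to a TGA stop 52 and 55 nt after the junction. Their differences, 0.004 and −0.036, were smaller in the authors' deposited table, and neither had an unadjusted p under 0.05. For the 175-nt exon of PTBP3, the authors' deposited table gives 0.039 (p = 0.462).

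**Figure D2:**
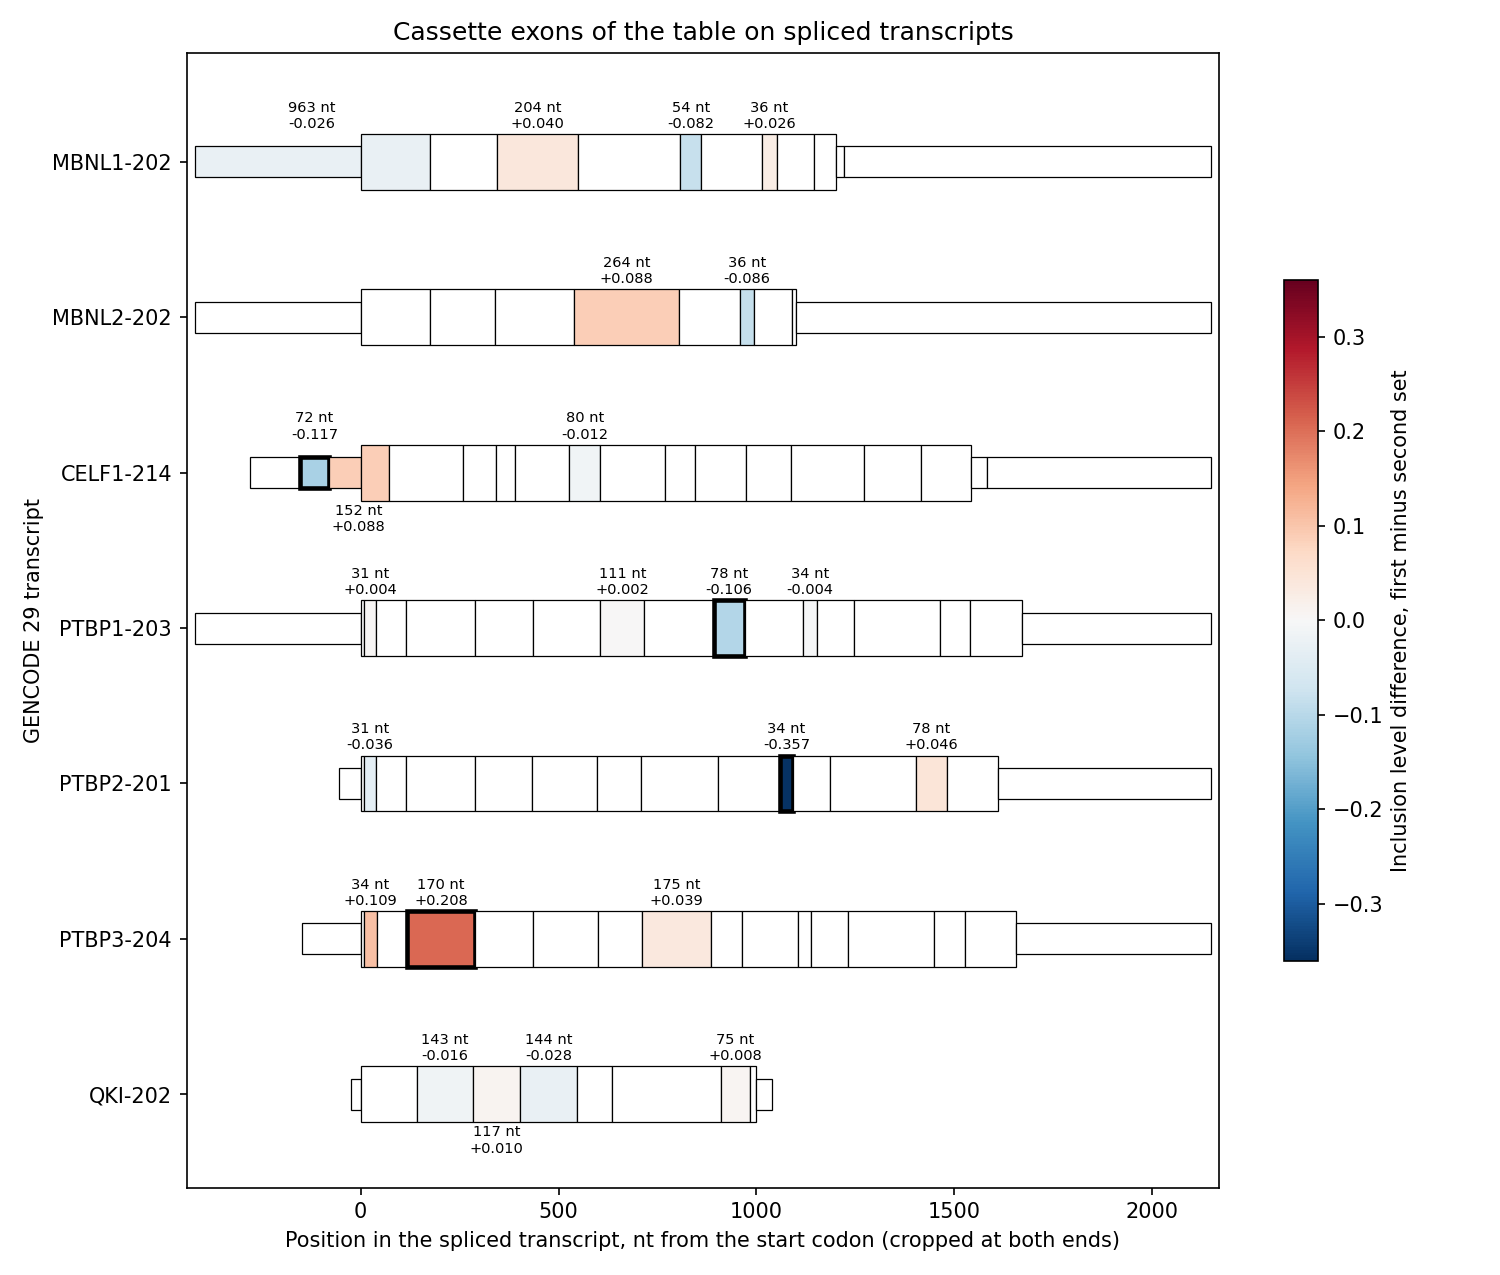
A GENCODE 29 transcript of each gene, with position along the spliced transcript in nt from the start codon on the horizontal axis, cropped at both ends. Tall boxes are coding sequence and low boxes untranslated sequence. Cassette exons of the table carry their length and inclusion level difference (first minus second set, colour; for an exon in 2 events, the event with the lower p), and thick outlines mark those that passed. Exons absent from the drawn transcript, among them the 54-nt exon of MBNL2, the 57-nt form in PTBP1 and the 40-nt exon of CELF1, are not shown. The 72-nt exon of CELF1 lies before the start codon, and the passing exons of PTBP1, PTBP2 and PTBP3 lie within the coding sequence.

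CELF1, an RNA-binding protein that acts on splicing in the nucleus and on RNA decay in the cytoplasm, had passing exons outside the coding sequence. The 40-nt exon (gene ENSG00000149187, chromosome 11 at 47528410 to 47528449, minus strand) had a difference of −0.16 with p = 0.00227 and FDR 0.0397 in the authors' deposited table. Downstream, the 72-nt exon at 47522413 to 47522484 differed by −0.117 in the authors' deposited table (p = 0.00179, FDR 0.0331). Both lie in the 5′ untranslated region of annotated transcripts, and each matched GENCODE 29 by its length and 1 of its flanking introns only. Both events start from the same upstream exon, across introns of 46094 and 52059 nt. The exon that follows the 40-nt exon in its event is the 72-nt exon. The junction that skips the 40-nt exon is thus the one that joins the shared upstream exon to the 72-nt exon. The same reads count as skipping of the 40-nt exon and as inclusion of the 72-nt exon, so the events are not independent. Such reads lower the level of the 40-nt exon and raise that of the 72-nt exon. Inclusion of both exons was lower in the first set.

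The next exon of CELF1, of 152 nt, holds the start codon of a coding transcript, in which 71 of its bases are coding. Its difference was 0.088 with p = 0.0101 and FDR 0.127 in the authors' deposited table, opposite in sign to the exons before it, and it did not pass. The junction that skips the 152-nt exon is the one that joins the 72-nt exon to the exon after it. The same reads thus count as skipping of the 152-nt exon and as inclusion of the 72-nt exon, so the signs are not independent. The 105-nt exon had a larger difference than the passing exons of CELF1, −0.211, yet a p of 0.192, and it matched only a transcript annotated as non-coding. The 113-nt and 80-nt exons had differences of 0.05 (p = 0.73) and −0.012 (p = 1) in the authors' deposited table. Of the 6, the 80-nt exon alone is fully coding, and its loss leads to a TGA stop 32 nt after the junction and 928 nt before the last junction.

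MBNL1 and MBNL2 each have listed exons of 54 and 36 nt, and all 7 exons listed for the pair are a multiple of 3. The 54-nt exons, which hold part of the nuclear localisation signal, are shown with the bases that differ between the paralogs in capitals (GRCh38 chr3:152446704-152446757 and chr13:97356796-97356849, plus strand).
MBNL1 54-nt exon: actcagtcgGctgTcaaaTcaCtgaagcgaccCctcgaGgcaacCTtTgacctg
MBNL2 54-nt exon: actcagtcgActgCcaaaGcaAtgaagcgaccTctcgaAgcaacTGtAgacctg
They share 45 of 54 bases (83.3%). The MBNL2 exon matched with both introns only in a transcript annotated for nonsense-mediated decay, and its 54 bases are coding in a transcript that matched by 1 intron. The MBNL1 exon (gene ENSG00000152601, chromosome 3 at 152164493 to 152164546 in the table) had a difference of −0.082 with p = 0.33 in the authors' deposited table. For the MBNL2 exon (gene ENSG00000139793, chromosome 13 at 98009050 to 98009103) the authors' deposited table lists a difference of 0, with p = 0.852. Neither self-regulated exon was called.

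The 36-nt exons of the MBNL genes encode a stretch that has been linked to contact between MBNL molecules. They are printed because both hold GCATG, in capitals, the element that RBFOX2 binds (GRCh38 chr3:152455542-152455577 and chr13:97365136-97365171, plus strand).
MBNL1 36-nt exon: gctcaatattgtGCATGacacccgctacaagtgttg
MBNL2 36-nt exon: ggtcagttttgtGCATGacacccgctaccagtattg
They share 31 of 36 bases (86.1%). The MBNL2 exon, at 98017390 to 98017425, had a difference of −0.086 with p = 0.0416 and FDR 0.362 in the authors' deposited table, and the MBNL1 exon, at 152173331 to 152173366, 0.026 with p = 1. Of 71 matched exons of 36 nt in the whole table, these 2 were the ones with GCATG in transcript sense (2.82%). Among matched exons of 31 to 300 nt, GCATG was found in 4 of 27 in these genes (the 36-nt exons, the 264-nt exon of MBNL2 and the 175-nt exon of PTBP3) and in 10.4% of 25274 in the table. Its reverse complement, CATGC, was found in 1 of 27 and in 10.5%. None of the 4 exons with GCATG passed. A match to these letters is not a binding site, and introns were not searched.

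The other MBNL exons did not pass. The 264-nt exon of MBNL2, which is fully coding, had a difference of 0.088 with p = 0.0661 and FDR 0.51 in the authors' deposited table. The junction that joins this exon to the next in its event also skips the 54-nt exon of MBNL2. The values of these exons are therefore not independent. In MBNL1, the authors' deposited table gives 0.04 for the 204-nt exon (p = 0.471) and −0.026 for the 963-nt exon, which has 174 coding bases (p = 1).

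QKI (gene ENSG00000112531, chromosome 6, plus strand) had the narrowest range of the 7 genes. Its 5 events lay between −0.028 and 0.013 in the authors' deposited table, and none had an unadjusted p under 0.05. The exons of 143, 117 and 144 nt follow one another in the body of the coding sequence, with differences in the authors' deposited table of −0.016 (p = 0.499), 0.01 (p = 0.562) and −0.028 (p = 0.432). Further on, 75- and 850-nt exons that end at the same base had differences of 0.008 and 0.013, each with a deposited p of 1. The 75-nt exon belongs to the part of QKI where its isoforms, which differ in their C terminus and in their place in the cell, diverge. Without the junction counts, a small difference at ample coverage and one at sparse coverage cannot be told apart.

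**Figure D3:**
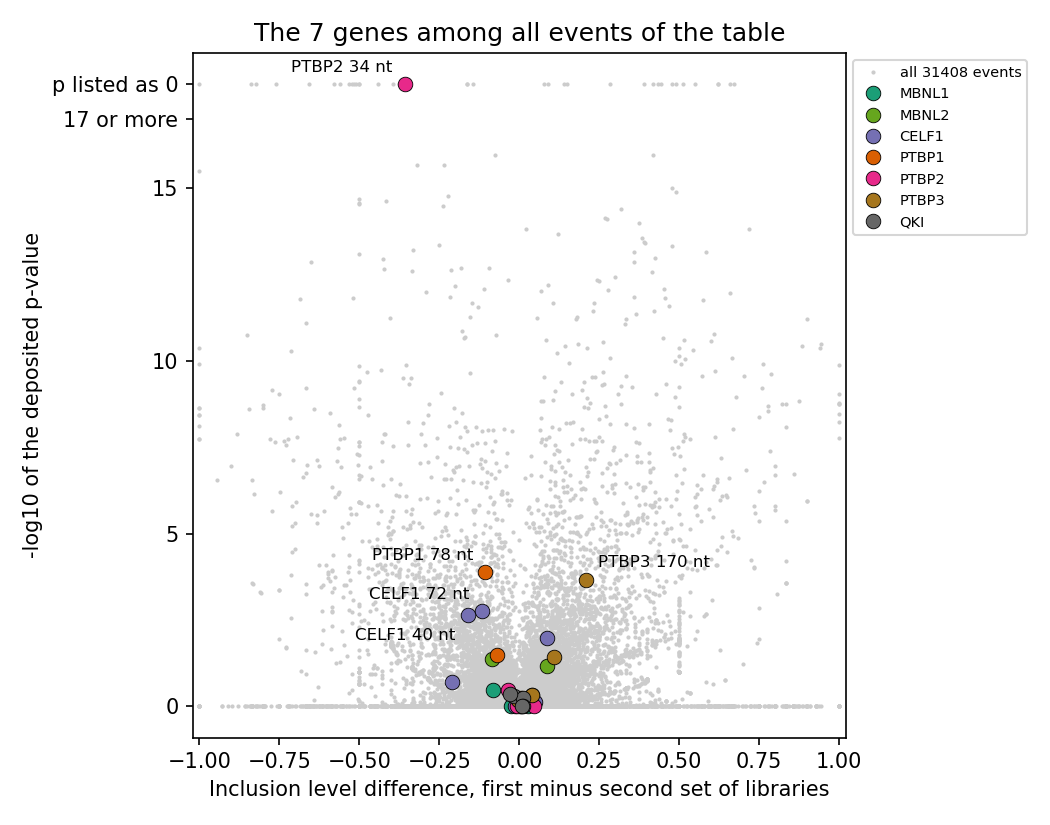
Inclusion level difference (horizontal axis, first minus second set) against −log10 of the deposited p-value (vertical axis) for all 31408 events of the authors' deposited table (grey) and for the 32 events of the 7 genes (coloured by gene). Events with a p listed as 0 are drawn in the top row. The 5 passing events are labelled: the 34-nt exon of PTBP2 is in the top row and the other 4 lie well below the upper range of the table, with 1034 to 1794 events at p-values as low as theirs or lower.

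By coding status, 21 of the 30 exons are fully coding in a matched transcript (70%, against 64.4% of all exons in the table). Matches by 1 intron were read only where none by both introns was found. The 54-nt exon of MBNL2 is therefore not among the 21. Of the 21, 12 are a multiple of 3. The other 9 are not, and skipping of any of the 9 places the first stop codon more than 50 nt before the last junction, the distance usual for decay of the transcript. The stop was read from the annotated start codon only. Use of a later start codon was not examined, and neither was decay itself. They are the 80-nt exon of CELF1, the 31- and 34-nt exons of PTBP1, the 31- and 34-nt exons of PTBP2, the 3 exons of PTBP3 and the 143-nt exon of QKI. Among these 9, the authors' deposited table has 2 that passed, which were the 34-nt exon of PTBP2, higher in the second set, and the 170-nt exon of PTBP3, higher in the first. Of the 12 in frame, 1 passed, the 78-nt exon of PTBP1. Over the whole table, 4.02% of 9657 fully coding exons that break the frame passed, and 6.24% of 8050 that keep it. Whether passing depends on frame in the 7 genes was not tested. The other 2 passing exons, both of CELF1, are untranslated.

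A list of 27 other tissue splicing regulators was read in the same way. Events were listed for 12 of them, and 4 of 38 events passed (10.5%, against 5.15% of all events in the table). By gene, 3 of the 12 had a passing event, against 13.7% of all genes. TIA1, a stress granule protein that promotes use of weak splice sites, had a 33-nt exon with a difference of 0.282 (p = 8.41e-11, FDR 1.94e-08) in the authors' deposited table. Its paralog TIAL1 had overlapping exons of 68 nt (−0.1, FDR 2.41e-05) and 376 nt (−0.18, FDR 3.94e-09) that differ in their start. RBM38, an RNA-binding target of p53, had a 96-nt exon with a difference of 0.525 (p = 0.000102, FDR 0.00323), and another event of the same exon had 0.024 (p = 0.113), per the authors' deposited table. Of the passing differences in this list, 2 were higher in each set. The 2 higher in the second set were the TIAL1 exons, which share the skipping junction and the junction to the next exon. Their values are therefore not independent.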

How the data were processed

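The 4 samples were grouped by their titles and genotype labels. A skipped-exon table of rMATS with junction counts was deposited, per the file headers. The submitters' processing notes name STAR 2.7.3a and hg19 without a role. Positions are those of the table, as 1-based starts. The deposited p-values and q-values (FDR) are the authors' own. The inclusion difference, read as a score from −1 to 1, was deposited by the authors and taken as first minus second set, the rMATS convention. The effective length was 94 nt for the skipping form and up to 188 nt for the inclusion form. The 6 columns of per-library values match no label and were not used, so no model was refitted and depth is not given.

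Events passed at FDR under 0.05 and an absolute difference of at least 0.1. Exons were matched to GENCODE 29 by gene identifier, exon length and intron lengths, with no coordinate compared: 27 of 30 by both introns, 2 by 1 intron, 1 unmatched. Sequences come from its transcripts, and some are not reported here. The members and lists were chosen with earlier results of these data known. Named exons were all passing events, all with an unadjusted p under 0.05 and exons known as self- or cross-regulated. The calling rule was tested on simulated p-values and differences. No reads or libraries were simulated, so the authors' own test was not examined. The other FDR limits were 0.01 and 0.1, the other minimum differences 0 and 0.2, and the other correction Bonferroni. Python 3.11.15, pandas 2.3.3, numpy 2.4.6 and matplotlib 3.10.9 were used.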

Additional observations from a re-analysis of the deposited data

How the results depend on the processing

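The counts depended on the thresholds. Passing events and passing exons of the 7 genes, 5 each, were 3 each at an FDR under 0.01, 2 each at a minimum difference of 0.2 and 1 each with Bonferroni correction over the table. Genes with a passing event, 4, were 3 at an FDR under 0.01, 2 at a minimum difference of 0.2 and 1 with Bonferroni correction. Passing events of the other regulators, 4, were 2 at a minimum difference of 0.2 and 3 with Bonferroni correction. An FDR under 0.1, no minimum difference and, for exons, collapse of events before adjustment left the counts at 5, 5 and 4. Of 5 alternatives, the 34-nt exon of PTBP2 passed 5, the 170-nt exon of PTBP3 4, the 78-nt exon of PTBP1 3 and each CELF1 exon 2. An FDR under 0.1 and no minimum difference are looser than the main rule, so every passing event meets them. The CELF1 exons met only these, and failed at an FDR under 0.01, a minimum difference of 0.2 and Bonferroni correction. The PTBP1 exon failed the last 2 of these, and the PTBP3 exon failed Bonferroni correction. No paired analysis was run: each clone came from its own single cell, and no library column could be tied to a numbered clone. The fits without each library in turn were not run, since those columns were not used. Depth and the spread between libraries are not given here.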
